A study of Mus musculus with 3 samples.

Results

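The genes described here are imprinted genes, chosen by name: Meg3, Rian, Mirg, Nnat, Peg3, Zdbf2, Snhg14, Igf2, Cdkn1c and Dlk1. Of these 10 symbols, 8 had a row in the count matrices, and Rian and Snhg14 were not analysed here. Of the 8, 7 had at least 20 unique molecular identifiers (UMIs, each standing for 1 captured RNA molecule) over the 3 libraries, out of 30559 genes in all. Igf2, which encodes a fetal growth factor, had 0 UMIs in every library.

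An imprinted gene is transcribed mainly from the copy inherited from a given parent, under the control of a nearby region that carries DNA methylation from the egg or the sperm. Many such genes are active in the developing brain, where they are known for roles in growth, metabolism and neural differentiation. Meg3, Rian and Mirg are noncoding RNAs of the maternal copy of the Dlk1-Dio3 region. Dlk1 in the same region is known in general, though not for every cell type, as expressed from the paternal copy. Nnat, Peg3, Zdbf2 and Snhg14 are known as paternally expressed and Cdkn1c as maternally expressed. The parental copy from which an RNA came was not measured in these data.

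The libraries hold single-nucleus RNA of neural stem cells taken from the subventricular zone of newborn mice on a C57BL/6 background, grown as neurospheres and differentiated until day 15 in vitro. The control cultures carried a lentivirus for red fluorescent protein (RFP). The CBP-ablated cultures were CBPf/f (floxed Crebbp) and the p300-ablated cultures p300f/f (floxed Ep300), both with a lentivirus for Cre fused to mCherry, so that every cell that took up the virus could be recombined whatever its type. CBP and p300 are lysine acetyltransferases that act as coactivators at promoters and enhancers. Tamoxifen is the treatment given in the labels of each of the 3 samples, although Cre came from a lentivirus according to the methods. The line of mice that gave the control cultures is not stated. Each library was 1 pool of about 15 cultures from which red fluorescent nuclei were sorted, with 16000 nuclei loaded, so there were no replicates, no test between conditions was made and every interval given is a 95% interval for counting error alone. Counts from nuclei vary more than that.

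The control library held 4884 nuclei and 16312170 UMIs, the CBP-ablated library 3017 nuclei and 12748336 UMIs, and the p300-ablated library 4648 nuclei and 18876682 UMIs. UMIs of the RFP vector were found in the control library (108) and not in the others, whereas UMIs of the Cre vectors were at 0 in control and numbered 29 and 16 in the libraries with ablated CBP and p300. In the order control, CBP-ablated, p300-ablated, which is kept wherever 3 values follow each other, Crebbp was at 335, 370 and 365 counts per 1000000 UMIs (CPM) and Ep300 at 114, 136 and 115 CPM, but counts over the whole gene do not check the removal of 1 exon. The study states, from earlier work, that the recombined Ep300 allele leaves no mature mRNA. Introns are counted here too, so unspliced RNA is included, and loss of mature Ep300 mRNA was not tested. Between 1 and 7 cell barcodes were shared by any pair of libraries. Nuclei fell into 13 clusters, of which 10 were named from marker lists and 3 kept the names of leading genes, and the imprinted genes themselves were left out of the clustering. Neural or oligodendrocyte progenitor-like (NPC/OPC-like) nuclei passed 8 of their 8 markers and radial glial or pluripotent stem cell-like (RGC/PSC-like, the name used in the study) nuclei 9 of 9. The name immature neuron-like rested on 3 markers only (Kcnj6, Nell2 and Cacng4), and no cluster had it at the lower clustering resolution of 0.3. The astrocyte-like class held 1278 control nuclei and 0 from either ablated library, and the immature neuron-like class 235, 18 and 468, too few in the CBP-ablated library for a comparison. In the Ogn/Tagln cluster 174 of 185 nuclei were called doublets.

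Meg3 is a long noncoding RNA (chromosome 12, 109541001 to 109571726, plus strand, GRCm38, GENCODE M21). Nnat, a small membrane proteolipid of neurons (chromosome 2, 157560078 to 157562522, plus strand), overlaps Blcap on the opposite strand. Peg3 is a zinc finger protein (chromosome 7, 6703892 to 6730431, minus strand). CBP is named for its binding to CREB, the factor of the cAMP response element, so the stretch upstream of the start of the 3 genes with the most UMIs is shown with the full cAMP response element, TGACGTCA (a palindrome, so the same on both strands), in capitals. The sequences are from RefSeq on GRCm38.p6, 250 bases each, written 5′ to 3′ on the strand of the gene.
Meg3, chr12:109540746-109540995: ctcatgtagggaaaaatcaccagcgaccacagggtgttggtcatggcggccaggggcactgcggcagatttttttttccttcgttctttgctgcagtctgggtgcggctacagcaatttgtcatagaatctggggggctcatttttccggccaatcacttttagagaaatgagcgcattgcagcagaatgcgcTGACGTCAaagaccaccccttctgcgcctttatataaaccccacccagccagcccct
Peg3, chr7:6730420-6730669: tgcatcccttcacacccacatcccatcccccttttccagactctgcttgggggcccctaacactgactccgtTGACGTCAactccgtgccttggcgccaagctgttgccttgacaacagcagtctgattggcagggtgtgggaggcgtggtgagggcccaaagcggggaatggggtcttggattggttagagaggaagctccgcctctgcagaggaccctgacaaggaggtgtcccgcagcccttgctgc
Nnat, chr2:157559828-157560077: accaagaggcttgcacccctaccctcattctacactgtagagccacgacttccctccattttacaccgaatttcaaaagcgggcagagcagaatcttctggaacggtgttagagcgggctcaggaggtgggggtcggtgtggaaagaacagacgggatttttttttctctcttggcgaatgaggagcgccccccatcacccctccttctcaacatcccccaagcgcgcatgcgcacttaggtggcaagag
In windows of 250 bases before to 50 after a start, the element was present in 588 of 32851 promoters of the table (1.79%), or in a promoter of 549 of 27025 genes (2.03%). It was present in 3 of the 14 promoters of the listed genes, and in a promoter of 3 of the 9 genes that the table holds, Meg3, Peg3 and Zdbf2, with its first base 57, 178 and 59 bases upstream of the start. The Nnat window does not hold these letters. A match is a description of the sequence, and binding was not measured.

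Mirg (chromosome 12, 109729764 to 109749460, plus strand) is the host transcript of a microRNA cluster: 14 hairpins and 26 mature microRNAs of the RefSeq table lie within it on the same strand, against 1 hairpin and 3 mature microRNAs within Meg3. The sequences of miR-134-5p, known for its role at dendritic spines, and of the pair in Mirg with the same seed are shown, with the seed (bases 2 to 8) in capitals.
mmu-miR-134-5p: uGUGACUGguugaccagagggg
mmu-miR-453: aGGUUGCCucauagugagcuugca
mmu-miR-496a-5p: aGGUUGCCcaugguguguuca
The libraries capture polyadenylated RNA, so that the UMIs of Mirg count the host transcript and not these microRNAs.

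In whole libraries, the Dlk1-Dio3 transcripts Meg3 and Mirg were higher in both ablated libraries than in control, and Peg3 was higher in the p300-ablated library. Nnat was 0.906 and 1.11 times its control level. Meg3 had 2864, 3279 and 6166 UMIs, or 176 CPM (interval 169 to 182), 257 CPM (248 to 266) and 327 CPM (319 to 335). The 3 intervals of Meg3 did not overlap, with control the lowest and p300-ablated the highest. Mirg had 69, 94 and 171 UMIs, or 4.23, 7.37 and 9.06 CPM, so that control was again the lowest. Nnat stood at 168, 152 and 186 CPM, from 2742, 1941 and 3519 UMIs. Peg3 stood at 32.6, 31.5 and 45.9 CPM, from 532, 401 and 866 UMIs, and its control and CBP-ablated intervals overlapped.

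The remaining members were close to the limit of detection. Zdbf2, which encodes a protein with a DBF-type zinc finger (chromosome 1, 63273265 to 63314576, plus strand), had 19, 9 and 10 UMIs. Cdkn1c, an inhibitor of cyclin-dependent kinases (chromosome 7, 143458339 to 143461050, minus strand), had 14, 12 and 5. Dlk1, a transmembrane protein of the Notch ligand family (chromosome 12, 109452823 to 109463336, plus strand), had 11, 16 and 10. These counts amount to between 0.265 and 1.26 CPM, against floors of 0.184, 0.235 and 0.159 CPM for a count of 0 (3 UMIs). Cdkn1c was at −1.70 (−3.52 to −0.14) as log2 ratio in the p300-ablated library, on 19 UMIs in the pair, and at −1.47 (−3.33 to 0.14) without called doublets. In the GENCODE annotation, Igf2 (chromosome 7, 142650766 to 142666816, minus strand) overlaps the counted gene Gm49394 on its own strand, where reads that fit both genes are not counted.

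**Figure D1:**
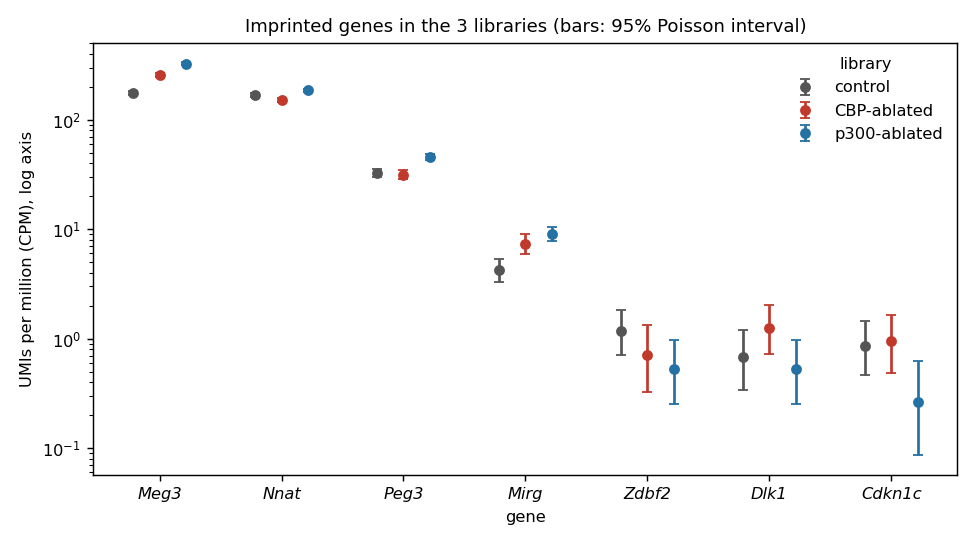
CPM (log axis) of the 7 imprinted genes in the 3 libraries, each point 1 library with its 95% Poisson interval. Meg3 and Mirg are lowest in control, and Zdbf2, Dlk1 and Cdkn1c lie near 1 CPM with wide intervals.

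As log2 ratios to control, Meg3 was at 0.55 (0.48 to 0.62) after ablation of CBP and 0.90 (0.83 to 0.96) after ablation of p300, that is 1.46 and 1.86 times control. Mirg was at 0.80 (0.34 to 1.27) and 1.10 (0.69 to 1.52). Peg3 was at −0.05 (−0.24 to 0.14) and 0.49 (0.33 to 0.65), and Nnat at −0.14 (−0.23 to −0.06) and 0.15 (0.08 to 0.22). Of the 7 members, 0 were 2-fold or more higher and 0 were 2-fold or more lower in the CBP-ablated library, where 4.18% and 5.68% of 15930 genes with at least 20 UMIs in the pair of libraries were. In the p300-ablated library, 6 members reached 20 UMIs, of which 1 was 2-fold higher (Mirg) and 1 was 2-fold lower (Zdbf2, −1.14, with an interval of −2.40 to 0.04), beside 1.87% and 3.87% of 16274 genes. Outside the astrocyte-like class Mirg stood at 0.70 (0.29 to 1.13) in the p300-ablated library, under 2-fold. In the CBP-ablated library it stood at 0.41 (−0.06 to 0.87) outside the astrocyte-like class and 0.40 (−0.20 to 1.00) outside neuron-like nuclei, so that its difference there was no longer beyond counting error. At 1.5-fold, 2 members were higher (Mirg and Dlk1, the latter on 27 UMIs) and 1 lower (Zdbf2) after ablation of CBP, beside 10.9% and 12.7% of genes, and 2 higher (Meg3 and Mirg) and 1 lower (Zdbf2) in the p300-ablated library, beside 6.87% and 11.4%. The median log2 ratio of the members was 0.13 and 0.32, beside 0.05 and −0.04 over all genes tested. Both comparisons share the control library. In whole libraries, a change in the number of nuclei of a type and a change of RNA within nuclei cannot be told apart, so levels within classes follow.

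In sums over the 3 libraries, 5 of the 7 members had their highest level in neuron-like nuclei (Gad1, Gad2, Dlx6os1 and Rbfox3 among the markers). These were Meg3, Mirg, Nnat, Peg3 and Zdbf2, the last on 15 UMIs, and the count was 4 with TMM factors. In control alone Nnat had 457 CPM there and 585 CPM in immature neuron-like nuclei. In the p300-ablated library Peg3 had 79.3 CPM there and 87.1 CPM in proliferating-like nuclei. Zdbf2 had 1 UMI in neuron-like nuclei of the CBP-ablated library. The share of all genes with their highest level in this class is not given here, so the count describes these genes only. Over the 3 libraries together, neuron-like nuclei held 2.58% of all UMIs, 28.8% of those of Meg3, 30.2% of those of Mirg, 8.02% of those of Nnat and 6.39% of those of Peg3. In the same sums, Meg3 was at 2873 CPM (2779 to 2969) in neuron-like, 372 CPM in RGC/PSC-like, 285 CPM in NPC/OPC-like and 255 CPM in immature neuron-like nuclei. Each of these exceeded the next with an interval of the ratio above 0. Within single libraries RGC/PSC-like nuclei had 367, 466 and 328 CPM and NPC/OPC-like nuclei 228, 166 and 334 CPM. In the p300-ablated library RGC/PSC-like nuclei were thus not the higher of the pair. Glial progenitor-like (178 CPM) and proliferating-like nuclei (176 CPM) did not differ beyond counting error in these sums. Within single libraries they were less alike. Glial progenitor-like nuclei had 184, 150 and 195 CPM and proliferating-like nuclei 132, 87.4 and 247 CPM, the higher class only in the p300-ablated library. Oligodendrocyte-like nuclei stood at 30.2 CPM and astrocyte-like nuclei at 8.67 CPM.

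Nnat had another order of classes. Over the 3 libraries together, its level was 533 CPM in neuron-like and 517 CPM in immature neuron-like nuclei, which did not differ beyond counting error (log2 ratio 0.04, −0.09 to 0.18). The Gpr149/Draxin cluster followed at 358 CPM, NPC/OPC-like nuclei at 256 CPM and proliferating-like nuclei at 202 CPM. In control alone the order was another, with 585 CPM in immature neuron-like, 534 CPM in Gpr149/Draxin and 457 CPM in neuron-like nuclei. Neuron-like nuclei had 607 CPM in the CBP-ablated library. In the p300-ablated library neuron-like and immature neuron-like nuclei had 470 and 477 CPM. At the other end, RGC/PSC-like nuclei had 22.6 CPM of Nnat over the 3 libraries, although they ranked next to neuron-like nuclei for Meg3 in those sums. Peg3 ranged from 93.1 CPM in neuron-like to 14.0 CPM in committed oligodendrocyte precursor-like and 5.67 CPM in microglia-like nuclei, with most neighbours in the order not distinguishable. Mirg was at 81.8 CPM in neuron-like, 16.4 CPM in RGC/PSC-like and 7.65 CPM in immature neuron-like nuclei, and at 0 UMIs in astrocyte-like and microglia-like nuclei.

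Microglia-like nuclei, which arise outside the neural lineage, served as reference for free RNA in the droplets. A Meg3 UMI was found in 2.89% of 311 microglia-like nuclei (median 1151 UMIs per nucleus), compared with 88.6% of neuron-like (median 3297), 47.2% of NPC/OPC-like (3557) and 28.4% of RGC/PSC-like nuclei (3829). For Nnat the share was 5.47% in microglia-like, 65.5% in immature neuron-like, 7.73% in RGC/PSC-like and 8.68% in oligodendrocyte-like nuclei. Levels of Nnat in RGC/PSC-like, oligodendrocyte-like and astrocyte-like nuclei were under the 43.4 CPM of microglia-like nuclei. In glial progenitor-like nuclei Nnat was at 47.9 CPM (log2 ratio to microglia-like 0.14, −0.48 to 0.83). In these classes it was not above the microglia-like level beyond counting error. Microglia-like nuclei are shallower, so the same free RNA per droplet makes up more of their CPM. How much of this Nnat is free RNA was not tested. After each nucleus was thinned to 1500 UMIs, which left 4636, 2922 and 4513 nuclei, a Meg3 UMI was found in 76.1%, 83.3% and 97.6% of neuron-like nuclei, compared with 84.3%, 85.9% and 98.9% before thinning. In NPC/OPC-like nuclei the share over all libraries was 47.2% before and 29.4% after thinning. A Nnat UMI was then found in 3.01% of RGC/PSC-like, 2.74% of oligodendrocyte-like, 5.84% of astrocyte-like and 5.43% of glial progenitor-like nuclei. For the 116 microglia-like nuclei left, the Nnat share was 2.59% (0.537% to 7.37%). Meg3 in microglia-like nuclei was itself lower in control, with 7.02, 38.6 and 49.7 CPM on 2, 4 and 7 UMIs, and the part of free RNA in the differences between libraries was not tested beyond the subtraction of 5% and 10%.

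**Figure D2:**
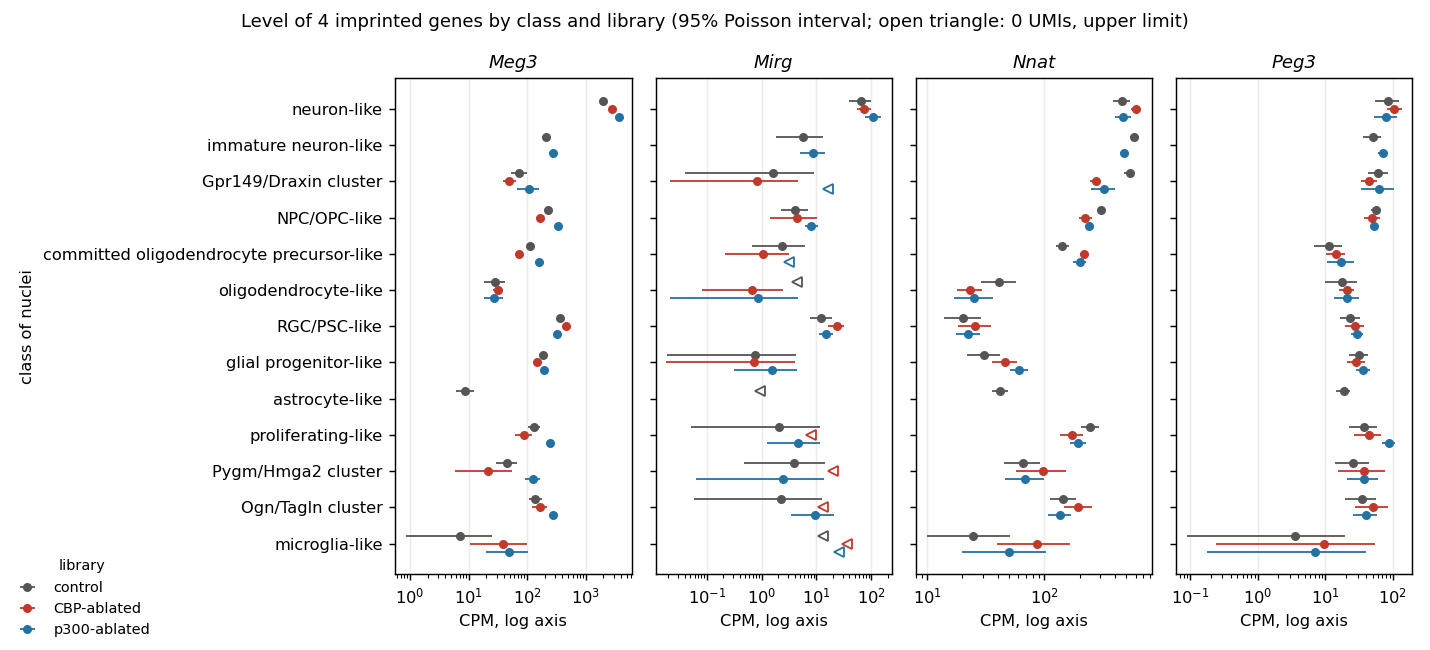
CPM (log axis) of Meg3, Mirg, Nnat and Peg3 in each class of nuclei, for each of the 3 libraries, with 95% Poisson intervals; classes with under 20 nuclei in a library are left out and open triangles mark the upper limit for 0 UMIs. Meg3 and Mirg are highest in neuron-like nuclei in each library, and Nnat is low in RGC/PSC-like nuclei, where Meg3 is not.

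Meg3 was spread unevenly between the nuclei of RGC/PSC-like and of glial progenitor-like cells. In glial progenitor-like nuclei 85.8%, 83.0% and 84.7% had 0 Meg3 UMIs. Over all libraries, the 4.18% of them with 5 or more held 65.8% of the Meg3 UMIs of that class. In the RGC/PSC-like class 71.5%, 68.3% and 73.2% of nuclei had 0 Meg3 UMIs, whereas 10.2%, 13.8% and 9.32% had 5 or more. The 5% of RGC/PSC-like nuclei with the most Meg3 held 52.0% of its UMIs, compared with 27.3% in NPC/OPC-like and 15.3% in neuron-like nuclei. In NPC/OPC-like nuclei, with a level of the same order, 47.2% of nuclei had a UMI but 4.35% had 5 or more.

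Nuclei with much Meg3 more often had a Mirg UMI, in RGC/PSC-like and neuron-like nuclei and in the other classes examined. Of the 170 RGC/PSC-like nuclei with 5 or more Meg3 UMIs, 54 (31.8%, interval 24.8% to 39.3%) had a Mirg UMI, against 22 of the other 1435 (1.53%, 0.963% to 2.31%). In neuron-like nuclei the same split gave 74 of 265 (27.9%) and 4 of 94 (4.26%). It gave 10 of 134 (7.46%) and 1.90% in NPC/OPC-like and 4 of 29 (13.8%) and 2.02% in immature neuron-like nuclei. In glial progenitor-like nuclei it gave 3 of 59 (5.08%) and 0.148%. The RGC/PSC-like nuclei with 5 or more Meg3 UMIs were somewhat deeper, with a median of 4148 compared with 3793 UMIs. Called doublets were 2.35% of the former and 0.976% of the latter. Neuronal markers summed to 202 CPM in nuclei rich in Meg3 and 70.9 CPM in the rest, far below the 9935 CPM of neuron-like nuclei with as much Meg3, while the RGC/PSC markers summed to 14588 and 13839 CPM. Per 100 Meg3 UMIs, Mirg had 4.41 UMIs (3.59 to 5.37) in RGC/PSC-like, 2.85 (2.31 to 3.47) in neuron-like, 2.29 (1.80 to 2.89) in NPC/OPC-like and 0.597 (0.193 to 1.40) in glial progenitor-like nuclei. In immature neuron-like nuclei it was 2.99 (1.86 to 4.57), which overlapped the RGC/PSC-like interval. Within each library, the intervals of RGC/PSC-like and neuron-like nuclei overlapped, with 3.36, 5.07 and 4.55 in the former and 3.21, 2.67 and 2.90 in the latter. The glial progenitor-like ratio rested on 5 Mirg UMIs.

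Dlk1, on the other side of the region, was found mostly in RGC/PSC-like and glial progenitor-like nuclei. Of its 37 UMIs, 29 (78.4%, 61.8% to 90.2%) lay in these nuclei, which held 23.2% of all UMIs. Dlk1 had 0 UMIs in the 359 neuron-like nuclei, which held 2.58% of all UMIs, too few for its absence to be read from 37 UMIs. Zdbf2 had 15 of its 38 UMIs in neuron-like nuclei, but 11 of those came from 3 control nuclei, and 5 from a single nucleus. Cdkn1c was scattered over 10 classes with at most 8 UMIs in any.

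**Figure D3:**
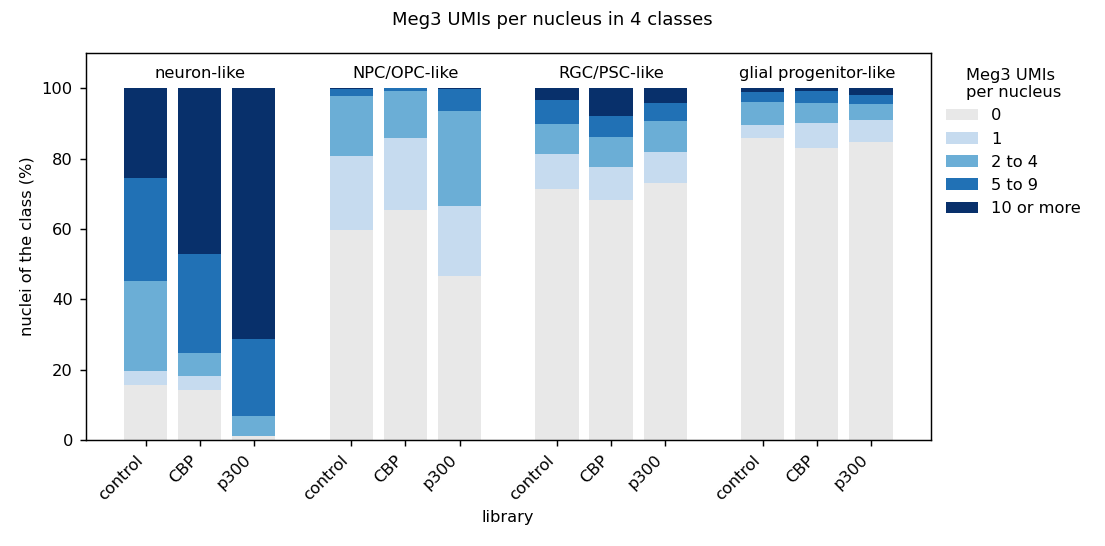
Share of nuclei (percent) by the number of Meg3 UMIs in the nucleus, for neuron-like, NPC/OPC-like, RGC/PSC-like and glial progenitor-like nuclei of each library. Neuron-like nuclei with 10 or more UMIs make up 25.5%, 47.1% and 71.3% of their class in the 3 libraries, whereas most RGC/PSC-like and glial progenitor-like nuclei have 0. Nuclei were not thinned to equal depth.

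Within neuron-like nuclei, Meg3 was higher in both ablated libraries. It stood at 2008, 2821 and 3786 CPM, from 102, 170 and 87 nuclei, a log2 ratio of 0.49 (0.36 to 0.63) and 0.91 (0.78 to 1.06). The share of these nuclei with 5 or more Meg3 UMIs was 54.9% (44.7% to 64.8%), 75.3% (68.1% to 81.6%) and 93.1% (85.6% to 97.4%). This share depends on depth and was not computed on thinned nuclei. The neuron-like nuclei held 310739, 596631 and 327750 UMIs in all. Doublets were called in 10, 4 and 9 of the neuron-like nuclei. For its neuron cluster, the study proposes neurons that formed before CBP or p300 was lost, or cells in which recombination failed. Whether the neuron-like nuclei here lacked CBP or p300 was not tested. The neuronal markers summed to 11978, 9618 and 9245 CPM in the nuclei with 5 or more Meg3 UMIs, and whether the neuron-like nuclei of the 3 libraries are of the same subtypes was not tested. Mirg followed in the same order, at 64.4, 75.4 and 110 CPM, but its ratio intervals included 0 (0.23, −0.56 to 1.07, and 0.77, −0.06 to 1.64).

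In CBP-ablated nuclei, the Meg3 ratio was above 0 in neuron-like and RGC/PSC-like nuclei and below 0 in several progenitor classes. Of 10 classes with at least 20 nuclei in each library and 20 UMIs, the interval lay above 0 in 2 and below 0 in 4. Over all 84822 pairs of a gene and a class with as many UMIs, the interval lay above 0 in 10.4% and below 0 in 7.35%, and intervals of abundant genes such as Meg3 are narrower than most. NPC/OPC-like nuclei had 228 CPM in control and 166 CPM in the CBP-ablated library (−0.45, −0.69 to −0.22). In committed oligodendrocyte precursor-like nuclei the values were 114 and 71.9 CPM (−0.66, −0.96 to −0.37), and in RGC/PSC-like nuclei 367 and 466 CPM (0.35, 0.19 to 0.50). In glial progenitor-like and proliferating-like nuclei the upper ends of the intervals were −0.03 and −0.01, and both intervals reached 0 when the imprinted genes were kept in the clustering. In proliferating-like nuclei the interval also reached 0 at resolutions 0.3 and 1.2 and without called doublets, and the ratio was 0.14 (−0.38 to 0.65) by marker score. Neuron-like nuclei were 2.09% of control and 5.63% of CBP-ablated nuclei and held 21.8% and 51.3% of the Meg3 UMIs. Outside neuron-like nuclei the ratio was −0.09 (−0.19 to 0.0013), and outside the astrocyte-like class, in which Meg3 was low, it was 0.17 (0.10 to 0.24). Mirg in RGC/PSC-like nuclei was at 12.3 CPM in control and 23.6 CPM in the CBP-ablated library (0.94, 0.12 to 1.80), from 20 and 37 UMIs. By marker score this Mirg ratio was 0.85 (−0.006 to 1.75).

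In p300-ablated nuclei, Meg3 was higher in most classes. The interval lay above 0 in 7 of 11 classes and below 0 in 1. The 7 include the Ogn/Tagln cluster (139 and 272 CPM), where most nuclei were called doublets, and the count was 6 without called doublets and 5 at resolution 0.3. Fewer classes could be compared in both settings. All 69 control nuclei of the Ogn/Tagln cluster were called doublets. At resolution 0.3 there was no immature neuron-like class, which is among the 7, and no Gpr149/Draxin cluster. Over 93495 pairs of a gene and a class the interval lay above 0 in 8.32% and below 0 in 6.36%. NPC/OPC-like nuclei had 228 CPM in control and 334 CPM in the p300-ablated library (0.55, 0.44 to 0.67), and 40.3% and 53.5% of them had a Meg3 UMI. Proliferating-like nuclei had 132 and 247 CPM (0.90, 0.49 to 1.32). The Pygm/Hmga2 cluster, led by Hmga2 and the p53 targets Cdkn1a and Bbc3, had 45.6 and 125 CPM (1.46, 0.72 to 2.24), on 23 and 51 UMIs. RGC/PSC-like nuclei were the exception at 367 and 328 CPM (−0.16, −0.31 to −0.01), and this ratio turned to 0.04 at clustering resolution 0.3 and 0.01 with nuclei assigned by marker score. Outside neuron-like nuclei the whole-library ratio was 0.92, and outside the astrocyte-like class it was 0.52 (0.45 to 0.58). In the same p300-ablated NPC/OPC-like nuclei, Mirg was at 8.10 CPM against 4.12 CPM in control (0.98, 0.11 to 1.94), from 55 and 14 UMIs. By marker score this Mirg ratio was 0.79 (−0.06 to 1.73).

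Nnat differed from control in opposite directions among the classes, and in several both ablated libraries, which share the control, lay on the same side. In NPC/OPC-like nuclei Nnat was at 301 CPM in control, 223 CPM in CBP-ablated (−0.43, −0.64 to −0.23) and 239 CPM in p300-ablated nuclei (−0.33, −0.45 to −0.22). In the Gpr149/Draxin cluster it was at 534, 274 and 321 CPM, a log2 ratio of −0.96 (−1.19 to −0.74) and −0.73 (−1.12 to −0.36). With another random seed for the clustering, which put 465 instead of 639 nuclei in this cluster, these ratios were −0.31 (−0.67 to 0.05) and 0.29 (−0.24 to 0.80). Committed oligodendrocyte precursor-like nuclei showed the reverse, with 142, 218 and 200 CPM (0.62, 0.40 to 0.84, and 0.50, 0.23 to 0.76). Glial progenitor-like nuclei had 30.7, 46.1 and 61.0 CPM, of which the p300-ablated ratio (0.99, 0.47 to 1.54) excluded 0, but these levels were near those of microglia-like nuclei, a single p300-ablated nucleus held 27 of 120 UMIs, and by marker score the ratio was 0.17 (−0.29 to 0.65). Of 10 classes in the CBP-ablated library the interval lay above 0 in 2 and below 0 in 4, and of 11 in the p300-ablated library it lay above 0 in 2 and below 0 in 3. Over all pairs of a gene and a class, the shares above and below 0 were 10.4% and 7.35% for CBP and 8.32% and 6.36% for p300. Intervals of abundant genes such as Nnat are narrower than most. Oligodendrocyte-like nuclei of the CBP-ablated library, below 0 (−0.84, −1.45 to −0.21), stood at 0.63 (−0.36 to 1.77) without called doublets. In the whole p300-ablated library, the ratio of Nnat was −0.16 outside the astrocyte-like class instead of 0.15. In the whole CBP-ablated library it was −0.45 (−0.54 to −0.36) outside the astrocyte-like class and −0.32 outside neuron-like nuclei, instead of −0.14.

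Within most classes, Peg3 did not differ from control beyond counting error. Its interval included 0 in 10 of 10 classes of the CBP-ablated library and in 9 of 11 of the p300-ablated library. Several of these intervals were wide because UMIs were few, so they do not show that a difference was absent. The counts of classes stand beside the shares over all pairs given for Nnat. For committed oligodendrocyte precursor-like nuclei, 19 control and 20 p300-ablated UMIs gave 0.58 (−0.40 to 1.56). Proliferating-like nuclei had 37.2 CPM in control and 87.1 CPM in the p300-ablated library (1.23, 0.47 to 2.06), from 18 and 77 UMIs. Immature neuron-like nuclei had 50.3 and 71.5 CPM (0.51, 0.01 to 1.03), with an interval that reached 0 with another seed, by marker score and without called doublets. In the largest class, NPC/OPC-like nuclei, Peg3 was at 55.9, 49.2 and 52.9 CPM, with both intervals around 0. Outside the astrocyte-like class, the whole-library ratio of Peg3 was −0.24 (−0.43 to −0.04) after ablation of CBP and 0.31 after ablation of p300. With the classes weighted as in control, the p300-ablated ratio was 0.17 instead of 0.49.

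**Figure D4:**
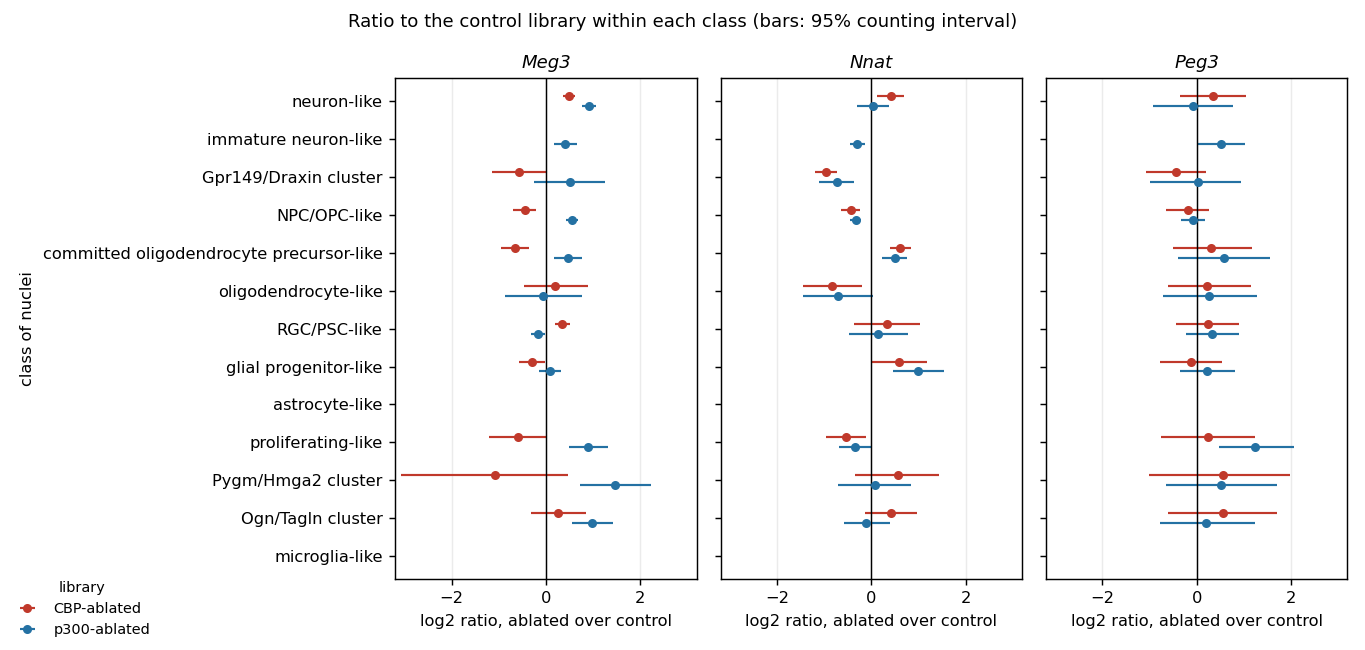
Log2 ratio of each ablated library over control for Meg3, Nnat and Peg3 within each class of nuclei, with 95% counting intervals; classes with too few nuclei or UMIs are empty. Meg3 in the p300-ablated library is above 0 in 7 of 11 classes, Nnat is below 0 in NPC/OPC-like nuclei and above 0 in committed oligodendrocyte precursor-like nuclei in both libraries.

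The wider lists are read against the shares of all genes given above, 4.18% higher and 5.68% lower for CBP and 1.87% and 3.87% for p300. Of 54 further imprinted genes with a row, 38 had at least 20 UMIs in the CBP-ablated and control libraries, of which 1 was 2-fold higher (Ddc, dopa decarboxylase) and 3 were 2-fold lower (Mest, Ndn and Zim1), with a median log2 ratio of 0.01. Of 39 in the p300-ablated comparison, 2 were higher (Grb10, an adaptor of growth factor receptors, and Atp10a) and 2 lower (Mest and Peg12), with a median of −0.02. Mest, a hydrolase-like protein of the endoplasmic reticulum, was the gene past 2-fold in both. In whole libraries it stood at 23.2 CPM in control, 9.81 CPM in the CBP-ablated (−1.24, −1.55 to −0.95) and 10.7 CPM in the p300-ablated library (−1.12, −1.37 to −0.87). Zim1, next to Peg3 in the genome, had 88, 24 and 75 UMIs. Ddc was a leading gene of a committed oligodendrocyte precursor-like cluster at resolution 1.2, which held 117, 284 and 76 nuclei. The whole committed oligodendrocyte precursor-like class of the main clustering, a larger set, held 8.05% of control and 20.2% of CBP-ablated nuclei. The astrocyte-like class held 24.0% of control UMIs and 0 of those of either ablated library. Ddc, Mest and the other further imprinted genes were not compared within classes. Of 14 genes that act on imprints or DNA methylation, 13 reached 20 UMIs and 0 were past 2-fold in either library, with medians of 0.20 and 0.04.

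Over 36 sums of nuclei (class by library, at least 20 nuclei each), the genes most like Meg3 among 6227 with at least 1000 UMIs were Pcbp3 (Pearson r 0.82 of log2(CPM + 1)), Nrxn3 (0.81) and Slc44a5 (0.81). Those most like Nnat were Khdrbs2, Septin3 and Dpp10 (each 0.90), and those most like Peg3 were Akap6 (0.92), Ank1 (0.88) and Csrnp3 (0.88). Between members, r was 0.86 for Meg3 with Mirg (334 UMIs in all), 0.47 for Meg3 with Nnat and 0.67 for Meg3 with Peg3. These are descriptions over sums that share libraries and classes.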

How the data were processed

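Single-nucleus RNA was measured in 3 libraries of neurosphere cultures. According to the methods and labels, the authors aligned 10x Genomics 3′ reads to GRCm38 with Cell Ranger 3.1 with a reference that counts exons and introns, called nuclei, and deposited raw UMI counts per gene and nucleus, without normalization. FastQC 0.11.9 and Seurat 2.3.4 are also named in the processing notes of the submitters. Unspliced transcripts of long genes are counted, and reads that fit more than 1 gene on a strand are not.

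From these counts, UMIs were summed per library and per class and expressed as CPM with exact Poisson intervals. Ratios have conditional binomial intervals and shares exact Clopper-Pearson intervals (95%, counting error only). With 1 library per condition no test was run, and 2-fold describes size. Genes entered a comparison with at least 20 UMIs in the pair of libraries, and classes with at least 20 nuclei in each library. Clusters were made in R 4.3.3 (Seurat 5.3.0, Matrix 1.6.5) from 1617 genes, the union of 1000 variable genes per library, less the 4 members among them, with 20 principal components, 30 neighbours, resolution 0.6 and seed 1. A cluster was named when at least 60% and at least 3 markers of a list were detected in 10% of nuclei at 2 times the level elsewhere. Scrublet (scanpy 1.11.5) called 191, 73 and 173 doublets at 0.8% per 1000 nuclei; its own threshold gave 160, 119 and 88. TMM factors came from edgeR 4.0.16. Python 3.11.15, numpy 2.4.6, scipy 1.17.1, pandas 2.3.3 and matplotlib 3.10.9 were used. On simulated Poisson counts with 200 genes changed by 1 log2 unit, the direction was recovered for 100% in both comparisons (15944 and 16269 genes). Intervals held the true ratio for 96.0% and 95.5% of the changed genes. Poisson counts are what the intervals assume, without variation between nuclei or cultures, so this checks the calculation only.

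The members, lists and rules were chosen with earlier results of these data known. The named genes were the members and the 3 genes most like each member with at least 1000 UMIs. The wider lists were given as counts with the genes past 2-fold. They hold imprinted genes and genes that act on imprints or DNA methylation. Limits for naming clusters were set with the files at hand.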

Additional observations from a re-analysis of the deposited data

Results flagged for a closer look

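Within a library, the same gene lay on opposite sides of control in different classes, each with an interval that excluded 0. The classes given for each gene are the highest and the lowest among those whose interval excluded 0, and the difference between them was not tested. In the CBP-ablated library, the log2 ratio of Meg3 was 0.49 in neuron-like nuclei and −0.66 in committed oligodendrocyte precursor-like nuclei. In the p300-ablated library it was 1.46 in the Pygm/Hmga2 cluster, on 23 control UMIs, and −0.16 in RGC/PSC-like nuclei, which was 0.04 at resolution 0.3 and 0.01 by marker score. For Nnat in the CBP-ablated library it was 0.62 in committed oligodendrocyte precursor-like nuclei and −0.96 in the Gpr149/Draxin cluster, which was −0.31 (−0.67 to 0.05) with another seed. In the p300-ablated library Nnat was at 0.99 in glial progenitor-like nuclei, where its level was near that of microglia-like nuclei, and −0.73 in the Gpr149/Draxin cluster. These ratios were 0.17 (−0.29 to 0.65) by marker score and 0.29 (−0.24 to 0.80) with another seed.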

How the results depend on the processing

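No paired analysis was possible because each condition had 1 library, and for the same reason no replicate could be left out. The weighting of classes as in control and the sums outside neuron-like nuclei were chosen after seeing the data. The median log2 ratio of the members in the CBP-ablated library (0.13) was −0.24 outside the astrocyte-like class. In the p300-ablated library the median (0.32) was 0.058 with equal class weights, −0.0032 with control class weights, 0.52 outside neuron-like nuclei, 0.69 with at least 100 UMIs and 0.15 with no minimum. The 1 member 2-fold higher there became 0 outside the astrocyte-like class and with equal or control class weights, and the 1 lower became 0 outside neuron-like nuclei and at 100 UMIs, where fewer genes were tested, and 2 with no minimum. In the CBP-ablated library 1 member was 2-fold lower with equal class weights instead of 0. At 1.5-fold, 2 were higher and 1 lower in the CBP-ablated and 2 higher in the p300-ablated library. The classes with Meg3 below 0 in the CBP-ablated library (4) were 2 with imprinted genes kept in the clustering and 2 by marker score. Those in the p300-ablated library (1) were 0 at resolution 0.3, by marker score and with TMM factors. The classes with Nnat above 0 in the CBP-ablated library (2) were 4 with 10% free RNA subtracted, and those below 0 in the p300-ablated library (3) were 1 at resolution 0.3 and 5 with 5% or 10% subtracted. The immature neuron-like class and the Gpr149/Draxin cluster, both among those 3, did not exist at resolution 0.3. The cause of the other changes was not tested. Among ratios within classes whose interval excluded 0, 5 of 250 values under the alternatives changed sign and 18 others reached 0. Of such whole-library ratios, 4 of 72 changed sign and 3 others reached 0. Zdbf2, Cdkn1c and Dlk1, with 5 to 19 UMIs in a library, had ratio intervals wider than 2 log2 units. Of the shares of nuclei with a UMI, 130 of 259 moved when nuclei were thinned, which lowers the counts by construction.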
